A study of Mus musculus with 12 samples.

Results

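The collagen genes are those whose symbol is Col, a number, a and a number, as in Col1a1, on an array row that carries no other gene symbol. Of 30145 named genes on the array, 42 were such collagens, each with 1 row, in 11 fibrillar, 8 basement membrane and 23 other genes. Col7a1 and Col6a4 lie on rows that also carry another symbol and are not among them. The genes were measured in 12 samples of pancreas from mice aged 6 months, 1 array each. The 6 control samples had the genotype Pdx1/Cre, and the 6 HuR samples had Pdx1/Cre + Traffic-HuR, so Cre under the promoter of Pdx1, a gene of the pancreatic epithelial lineage, was present in both groups. HuR, the product of Elavl1, is a protein that binds AU-rich elements in RNA. The labels do not say which cells of the HuR pancreas carried it, nor whether each array held a separate mouse, and p-values measure the spread between these arrays only.

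Collagens are trimers whose chains share long repeats in which glycine recurs at a fixed spacing. Fibrillar collagens form the cables of the interstitial matrix, type IV collagen forms the sheet of the basement membrane under epithelium and endothelium, and the other collagens decorate fibrils, form beaded filaments or anchor cells. In the pancreas the interstitial collagens are made mainly by stellate cells and fibroblasts, and they accumulate in the scarring of chronic pancreatitis, the reaction that the series' design text names.

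Levels are on the log2 scale of the deposited values, means are given ± SD, and a difference is the HuR mean less the control mean, with its standard error (SE) and 95% interval from limma. The number of arrays limits their precision. Array medians lay between 4.42, on HuR replicate 2, and 4.60. The median row of the array stood at 4.516, and 32 of 42 collagens lay above it. The other 10 lay nearer to the background rows, which had a median of 3.75, and log2 differences there understate a change. The median was taken over 65956 rows, 33206 of them without a symbol, so a level above it does not show expression. Some collagens stood little above it, such as Col2a1 at 4.90 on control arrays, and the same limit can apply to them. Acinar tissue was present on every array, since the acinar enzyme gene Cpa1 stood at the end of the scale on all 12. Elavl1 averaged 5.99 ± 0.12 on control arrays (n = 6) and 6.23 ± 0.14 on HuR arrays (n = 6), where the exact two-sided permutation test gave p = 0.0108 and a limma adjusted p of 0.878. HuR replicate 2 and control replicate 2 had the highest means of macrophage and adipocyte markers, and collagen results that rest on them are given with and without them.

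No collagen gene differed between the genotypes beyond the spread of the arrays. With limma, 0 of 42 passed an adjusted p under 0.05 over all genes, as did 0 of all 30145 genes (0%). At an unadjusted limma p under 0.05 there were also 0 of 42, against 5.5% of all genes (2.87% higher and 2.63% lower in HuR samples), and the ordinary linear model gave 0 too. The genotypes overlapped in every one of the 42, against 0.299% of all genes without overlap (0.166% higher and 0.133% lower in HuR samples). The mean was higher in HuR samples in 22 collagens and lower in 20, where 47.9% of all genes were higher. The median difference was 0.001 over the collagens and -0.003 over all genes.

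How much change the arrays could have missed differs between collagens. The 95% interval lay within 0.25 log2 units of 0 in 32 of 42 genes, within 0.5 units, or 1.41-fold, in 36, and within 1 unit, or 2-fold, in 41. The exception was Col3a1, whose interval was the widest. None of the brightest collagens, Col3a1, Col14a1, Col6a1, Col1a2, Col1a1, Col6a2 and Col6a3, had an interval within 0.25 units. Narrow intervals of genes near the background do not bound a change, since log2 differences there understate it. Such genes can include collagens that stood little above the median row. In these bulk samples, a change in the number of collagen-making cells could not be told apart from a change in collagen RNA per cell.

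**Figure D1:**
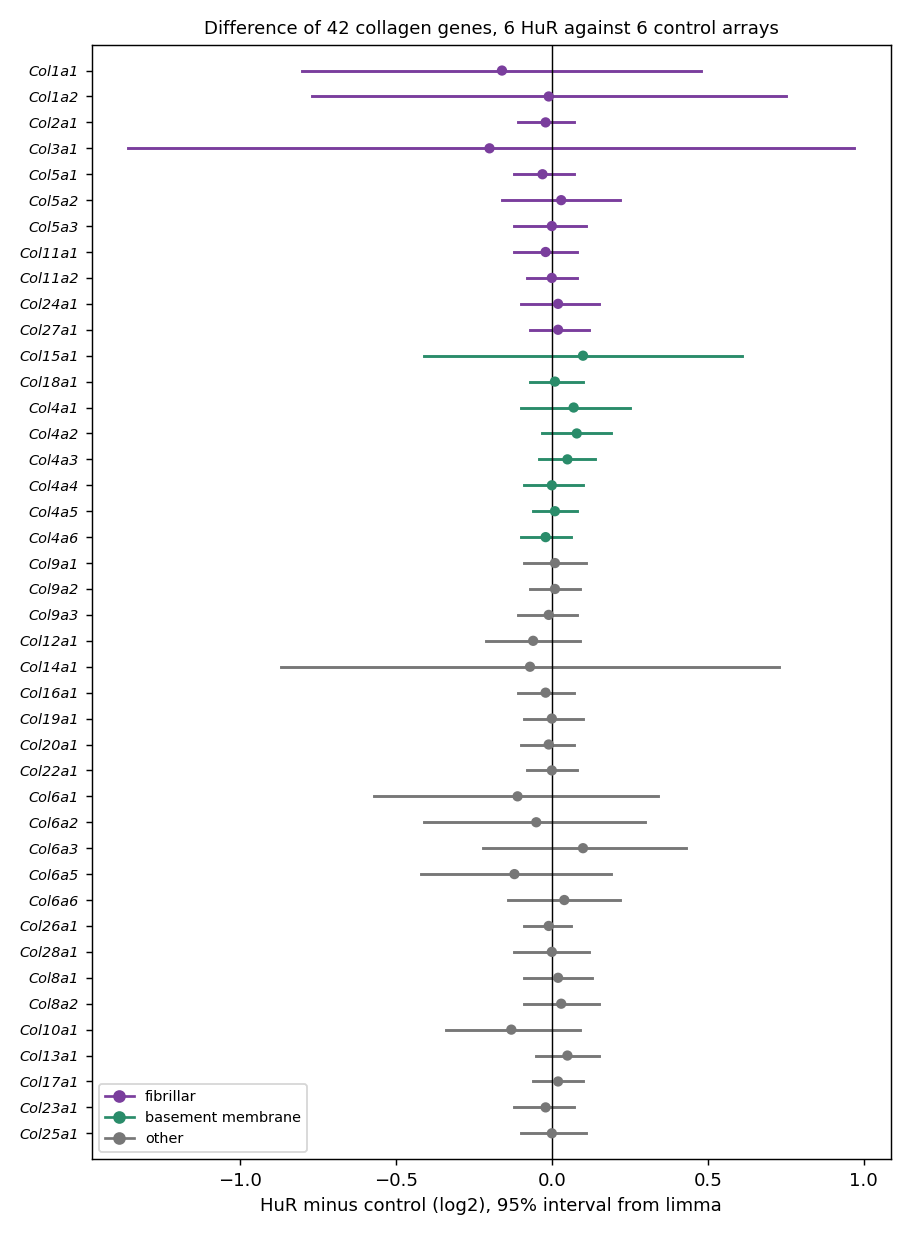
HuR minus control on the log2 scale (horizontal axis) for each of the 42 collagen genes, as points with 95% limma intervals, coloured by class (6 arrays per group). Every interval holds 0, and that of Col3a1 reaches from -1.36 to 0.97 while those of 32 genes stay within 0.25 of 0.

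The fibrillar genes Col1a1, Col1a2 and Col3a1 encode the chains of types I and III, the main collagens of interstitial matrix and scar. Col1a1 ran from 6.91 over a median of 7.21 to 8.07 in the controls and from 6.47 over 7.02 to 8.34 in the HuR samples. The highest and the lowest of all 12 arrays were therefore both HuR samples, replicates 2 and 4. Col1a1 differed by -0.16 (SE 0.295, interval -0.80 to 0.48), 1.12-fold lower, at p = 0.626 in the exact two-sided permutation test and a limma adjusted p of 0.977. It was -0.38 (SE 0.231) without HuR replicate 2, -0.25 (SE 0.202) without both replicates numbered 2 and -0.01 without HuR replicate 4.

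Col1a2 pairs with Col1a1 in type I collagen. It ran from 7.02 over 7.41 to 8.32 in the controls and from 6.63 over 7.33 to 8.94 in the HuR samples. Again HuR replicate 2 was the highest and HuR replicate 4 the lowest array. The difference was -0.01 (SE 0.348, interval -0.77 to 0.75), at an exact permutation p of 0.994. It was -0.29 without HuR replicate 2, 0.16 without control replicate 2, -0.13 without both and 0.17 without HuR replicate 4. The within-array difference of Col1a1 from Col1a2 shifted by -0.15 between the genotypes, and its values overlapped, from -0.36 to 0.08 among controls and from -0.60 to -0.06 among HuR arrays.

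Col3a1, the single chain of type III collagen, moved most between arrays. It ran from 7.81 over 8.52 to 9.66 in the controls and from 7.05 over 8.04 to 10.62 in the HuR samples, a span of 3.56 log2 units or 11.8-fold. The SD was 0.66 in the controls and 1.25 in the HuR samples. The difference was -0.20 (SE 0.533, interval -1.36 to 0.97), so the data allow anything from 2.57-fold lower to 1.95-fold higher. The exact permutation p was 0.74 and the limma adjusted p 0.985. Without HuR replicate 2 the difference was -0.62 (SE 0.393), without both replicates numbered 2 it was -0.43 (SE 0.372), without control replicate 2 it was 0.00 (SE 0.55) and without HuR replicate 4 it was 0.09 (SE 0.508). None of these reached an unadjusted limma p under 0.05. Without control replicate 2, 0 of 42 collagens did, against 7.32% of all genes.

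Col1a2 and Col3a1 were both highest on HuR replicate 2 and lowest on HuR replicate 4, as were Col1a1, Col15a1 and Col6a1 to Col6a3. No promoter sequence was at hand for Col1a1. The promoters of Col1a2 and Col3a1 are shown because their start regions differ in composition. They are RefSeq windows of GRCm38.p6 from 250 bases before to 50 after the gene's start, read 5′ to 3′ on the gene's strand (+ for both), at chr6:4505368-4505667 and chr1:45311288-45311587. Capitals mark every match on either strand to 3 short motifs, the CCAAT box (CCAAT), the GC box bound by Sp1 (GGGCGG) and the TATA box (TATAAA).
Col1a2: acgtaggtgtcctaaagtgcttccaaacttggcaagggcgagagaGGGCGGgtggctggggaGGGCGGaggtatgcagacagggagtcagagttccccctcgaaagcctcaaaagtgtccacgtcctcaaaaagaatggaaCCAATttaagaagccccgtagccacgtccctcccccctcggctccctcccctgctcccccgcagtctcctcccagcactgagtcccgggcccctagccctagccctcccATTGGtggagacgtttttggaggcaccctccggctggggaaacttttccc
Col3a1: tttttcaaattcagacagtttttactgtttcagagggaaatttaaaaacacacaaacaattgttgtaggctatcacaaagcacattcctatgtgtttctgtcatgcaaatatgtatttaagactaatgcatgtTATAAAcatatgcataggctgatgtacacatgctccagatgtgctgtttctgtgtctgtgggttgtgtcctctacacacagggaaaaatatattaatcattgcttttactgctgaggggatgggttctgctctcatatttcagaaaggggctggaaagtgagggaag
The Col1a2 window held 2 matches to the CCAAT box and 2 to the GC box at a GC content of 61%. The Col3a1 window held 1 match to the TATA box and none to the others, at 37.7% GC. Of the 42 collagens, 33 had such a window, 36 windows in all. The GC box stood in 58.3% of the collagen windows and 35.7% of all 32851 windows, the CCAAT box in 30.6% and 37.4%, and the TATA box in 13.9% and 13.6%. A match describes letters only, at any place in the window, and does not show that the motif works there.

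The remaining fibrillar genes varied little. Col5a2, a chain of the type V collagen that is incorporated into type I fibrils, ran from 5.71 over 5.80 to 5.93 in the controls and from 5.60 over 5.76 to 6.17 in the HuR samples. HuR replicates 2 and 4 were again its highest and lowest arrays. It differed by 0.03 (SE 0.087, interval -0.16 to 0.22), and by -0.04 without HuR replicate 2. The other type V chains Col5a1 and Col5a3, the cartilage collagen genes Col2a1, Col11a1 and Col11a2, and Col24a1 and Col27a1 differed by -0.03 to 0.02, with no interval reaching beyond 0.15 units from 0. Over the 11 fibrillar genes, 4 had a higher and 7 a lower mean in HuR samples, with a median difference of -0.006 against -0.003 over all genes.

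**Figure D2:**
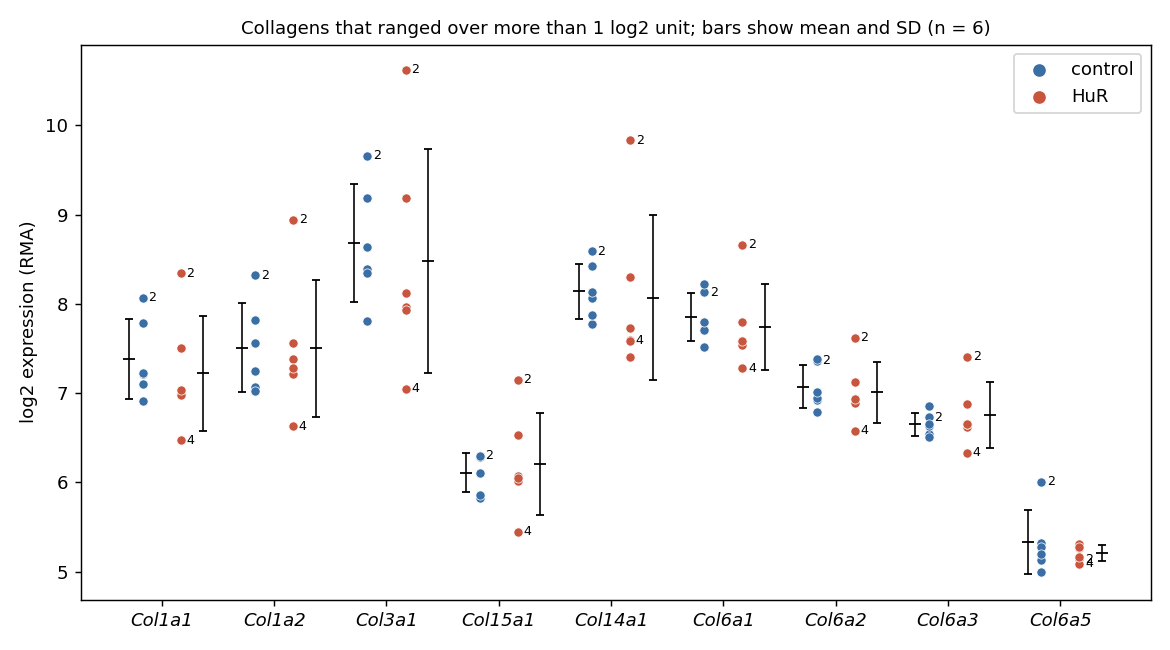
Log2 level (vertical axis) of the 9 collagen genes that ranged over more than 1 log2 unit, with a point per array (control blue, HuR red), the mean and SD beside each group (n = 6) and the digits 2 and 4 marking control replicate 2 and HuR replicates 2 and 4. HuR replicate 2 is the top point in 8 of the 9 genes and HuR replicate 4 the bottom point in 7.

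Among the basement membrane collagens, 7 of 8 had a higher mean in HuR samples and 1 a lower mean, with a median difference of 0.031, and none passed the test. Col4a1 and Col4a2 encode the chains of the type IV collagen found in nearly all basement membranes. Col4a2 ran from 6.45 over 6.46 to 6.55 in the controls and from 6.38 over 6.57 to 6.67 in the HuR samples. In 4 HuR arrays it lay above all controls, while HuR replicate 4 lay below them all. The difference of 0.08 (SE 0.0521, interval -0.03 to 0.19), or 1.06-fold, had the smallest limma p of the family, 0.155, beside 0.132 in the exact permutation test and a limma adjusted p of 0.918. Without HuR replicate 4 it was 0.11 (SE 0.0444), at an unadjusted limma p of 0.0258 and a limma adjusted p of 0.716, where 6.67% of all genes reached an unadjusted p under 0.05. It was 0.05 (limma adjusted p 0.934) without both replicates numbered 2 and 0.03 (limma adjusted p 0.955) after a further quantile normalization.

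Col4a1 ran from 6.17 over 6.35 to 6.40 in the controls and from 6.11 over 6.37 to 6.60 in the HuR samples. Its highest array was HuR replicate 2 and its lowest HuR replicate 4, and the genotypes overlapped. It differed by 0.07 (SE 0.0783, interval -0.10 to 0.25), by 0.03 without HuR replicate 2 and by 0.13 without HuR replicate 4. The within-array difference of Col4a1 from Col4a2 shifted by 0.00 between genotypes, with an SD of 0.08 on control arrays (n = 6) and 0.07 on HuR arrays (n = 6).

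Col4a1 and Col4a2 had nearly equal differences, but so did Col9a1 and Col9a2, which are not neighbours, at 0.01 each. Col4a1 and Col4a2 are neighbours that start head to head, and their windows are shown because they share a start region. They lie on chromosome 8 of GRCm38.p6, at chr8:11312777-11313076 (minus strand, Col4a1) and chr8:11312555-11312854 (plus strand, Col4a2), and overlap by 78 bases. Each is read 5′ to 3′ on its own strand, with the same matches in capitals.
Col4a1: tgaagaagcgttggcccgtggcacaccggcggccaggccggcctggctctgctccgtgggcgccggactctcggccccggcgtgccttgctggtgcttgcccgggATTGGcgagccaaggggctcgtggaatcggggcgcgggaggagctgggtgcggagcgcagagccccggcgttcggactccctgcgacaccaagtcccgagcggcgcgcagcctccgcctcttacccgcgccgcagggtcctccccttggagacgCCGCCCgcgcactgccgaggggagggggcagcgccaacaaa
Col4a2: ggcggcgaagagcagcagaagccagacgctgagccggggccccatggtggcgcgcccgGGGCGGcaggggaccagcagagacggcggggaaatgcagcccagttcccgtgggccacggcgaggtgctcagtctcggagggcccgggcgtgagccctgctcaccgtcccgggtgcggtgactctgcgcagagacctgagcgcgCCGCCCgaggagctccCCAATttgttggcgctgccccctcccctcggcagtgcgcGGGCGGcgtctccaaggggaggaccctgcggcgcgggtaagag
Their GC content was 74% and 73.7%. The Col4a1 window held 1 match to the CCAAT box and 1 to the GC box, the Col4a2 window 1 and 3, and neither matched the TATA box. The other type IV pairs are neighbours as well. Col4a3 and Col4a4, chains of the kidney, lung and inner ear basement membrane, differed by 0.05 and 0.00, and their within-array difference shifted by 0.04. The X-linked Col4a5 and Col4a6 differed by 0.01 and -0.02, with a shift of 0.03. Within groups, the within-array differences of these pairs had SDs of 0.02 to 0.03, smaller than those of Col4a1 and Col4a2. These genes lie nearer to the background, and the order of the shifts was not tested. Of the 7 pairs of collagen genes that stand next to each other among protein-coding genes in the RefSeq table, the widest gap in difference was that of Col3a1, at -0.20, and Col5a2, at 0.03.

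The multiplexins Col15a1 and Col18a1 are basement membrane collagens that carry sugar chains, and fragments of their ends are known as restin and endostatin. Col15a1 ran from 5.83 over 6.19 to 6.30 in the controls and from 5.45 over 6.06 to 7.15 in the HuR samples. Its lowest array was HuR replicate 4, and HuR replicates 1 and 2 lay above all controls. It differed by 0.10 (SE 0.232, interval -0.41 to 0.61), and by -0.09 without HuR replicate 2. Col18a1 ran from 5.41 over 5.43 to 5.52 in the controls and from 5.34 over 5.46 to 5.54 in the HuR samples, with HuR replicate 1 above and HuR replicate 4 below all controls, and differed by 0.01 (SE 0.0406).

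The type VI genes form beaded filaments that link cells to the fibrils around them, each filament unit built from Col6a1, Col6a2 and a further chain such as Col6a3. Col6a1 ran from 7.52 over 7.76 to 8.22 in the controls and from 7.28 over 7.58 to 8.66 in the HuR samples, with HuR replicates 2 and 4 at the ends. It differed by -0.11 (SE 0.208, interval -0.57 to 0.34), and without HuR replicate 2 by -0.29 (SE 0.133), with an unadjusted limma p of 0.0499 and a limma adjusted p of 0.957. Without both replicates numbered 2 it was -0.24. Col6a2 ran from 6.79 over 6.98 to 7.38 in the controls and from 6.58 over 6.93 to 7.62 in the HuR samples, and differed by -0.05 (SE 0.161), or by -0.18 (SE 0.127) without HuR replicate 2, 0.00 (SE 0.167) without control replicate 2 and -0.12 (SE 0.123) without both. Col6a3 ran from 6.51 over 6.64 to 6.86 and from 6.33 over 6.65 to 7.41, and differed by 0.10 (SE 0.149), or by -0.03 (SE 0.0941) without HuR replicate 2 and -0.01 (SE 0.101) without both replicates numbered 2. Both had their highest level on HuR replicate 2 and their lowest on HuR replicate 4. The within-array difference of Col6a2 from Col6a3 shifted by -0.16. It lay between 0.21 and 0.32 on the HuR arrays and between 0.24 and 0.62 on the control arrays, so the genotypes overlapped.

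Col6a5 was the only one of the 9 variable collagens with its highest array among the controls. It stood at 6.01 in control replicate 2 against at most 5.32 elsewhere, and differed by -0.12 (SE 0.141). Without control replicate 2 the sign turned, to 0.02 (SE 0.0666). Col6a6 differed by 0.04 (SE 0.0831).

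The collagens that sit on fibrils (FACIT collagens) had a median difference of -0.010 over 9 genes. Col14a1, which encodes the fibril-associated collagen XIV of soft connective tissue, ran from 7.77 over 8.10 to 8.59 in the controls and from 7.40 over 7.66 to 9.83 in the HuR samples. HuR replicate 2 lay above every control and 4 HuR arrays lay below them all. The difference was -0.07 (SE 0.365, interval -0.87 to 0.73). Without HuR replicate 2 it was -0.43 (SE 0.183), with an unadjusted limma p of 0.0409 and a limma adjusted p of 0.957. There Col14a1 and Col6a1 were the 2 collagens at an unadjusted p under 0.05, against 5.06% of all genes. Without both replicates numbered 2, 0 of 42 collagens reached that level, against 6.55% of all genes, and the smallest limma p was 0.0844, for Col14a1 at -0.34. The other 8 genes, Col9a1, Col9a2, Col9a3, Col12a1, Col16a1, Col19a1, Col20a1 and Col22a1, differed by -0.06 to 0.01. The lowest of these, Col12a1, was at 0.00 without control replicate 2.

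The remaining classes varied little. Col8a2, a short-chain collagen of vessel and corneal basement membranes, ran from 4.56 over 4.63 to 4.82 in the controls and from 4.52 over 4.68 to 4.77 in the HuR samples. The groups overlapped, and it differed by 0.03 (SE 0.055). Its partner Col8a1 differed by 0.02, and Col10a1, known from the hypertrophic cartilage of growth plates, by -0.13 (SE 0.1, interval -0.34 to 0.09). Col23a1, a collagen of the cell membrane, ran from 4.96 over 5.01 to 5.11 in the controls and from 4.89 over 5.02 to 5.06 in the HuR samples, with groups that overlapped and a difference of -0.02 (SE 0.0431). The other transmembrane collagens Col13a1, Col17a1 and Col25a1 differed by 0.05, 0.02 and 0.00. Col28a1 ran from 4.33 over 4.39 to 4.57 in the controls and from 4.23 over 4.43 to 4.51 in the HuR samples, again with overlap, and Col26a1 differed by -0.01.

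The collagens differed far more in how they varied between arrays than in genotype. In 9 genes, Col1a1, Col1a2, Col3a1, Col15a1, Col14a1, Col6a1, Col6a2, Col6a3 and Col6a5, the highest and lowest array were more than 1 log2 unit apart, as in 12.5% of all genes. The other 33 spanned 0.12 to 0.64 units and differed between genotypes by -0.13 to 0.08. HuR replicate 2 was the highest array in 8 of the 9, against 39.5% of the 3771 genes with such a span (4.94% of all genes). HuR replicate 4 was the lowest in 7 of the 9, against 10.2% of the genes with such a span (1.27% of all genes). Over all 42 collagens, HuR replicate 2 was highest in 10, against 16% of all genes, but lowest in 17, against 23%. Its array median, 4.42, was also the lowest of the 12. HuR replicate 4 was lowest in 16, against 8.64%. Control replicate 2 was among the 4 highest arrays in all 9, control replicate 6 in 8 and HuR replicate 1 in 7. HuR replicates 3 to 6 were among them in none of the 9. Across the 42 collagens the SD was larger in the HuR samples in 31. This difference in spread was not tested, and its share over all genes was not counted.

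**Figure D3:**
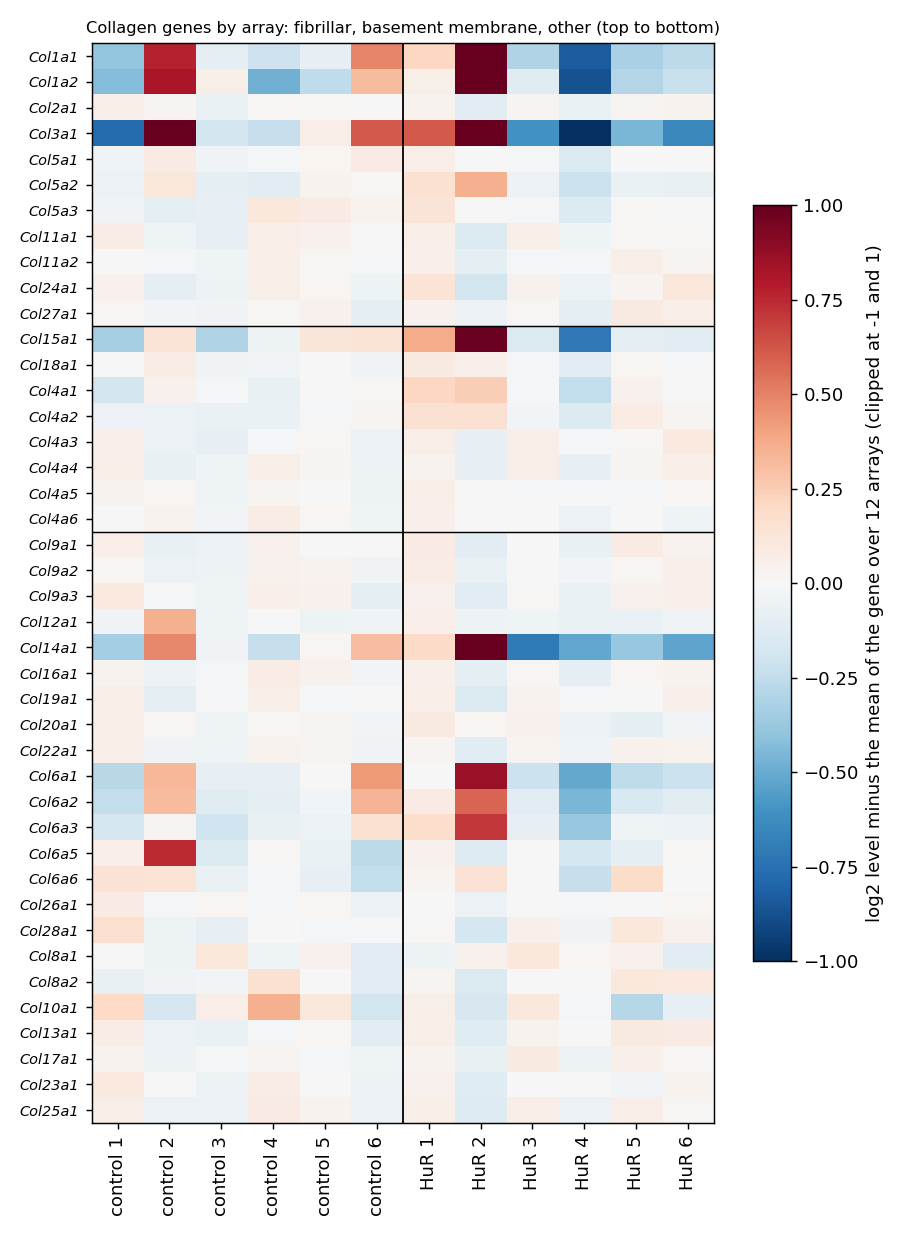
Level of each of the 42 collagen genes on each of the 12 arrays, as the log2 difference from the gene's own mean over the arrays (red higher, blue lower, clipped at -1 and 1), with controls left and HuR samples right of the line. Col1a1, Col1a2, Col3a1, Col14a1, Col15a1 and Col6a1 to Col6a3 are high on HuR replicate 2 and low on HuR replicate 4, while most other rows are pale on all arrays.

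Markers of stellate cells and fibroblasts were on average high on the same array. Their mean over 15 measured genes ran from 6.92 to 7.76 in the controls and from 6.91 to 8.18 in the HuR samples, with HuR replicate 2 the highest array, control replicate 2 at 7.76 and control replicate 6 at 7.54. Of these 15, 8 were higher and 7 lower in HuR samples, 0 at an unadjusted limma p under 0.05, with a median difference of 0.00. Among the 8 markers that spanned more than 1 log2 unit, 7 were highest on HuR replicate 2. Others were not: Thy1 was highest on control replicate 6, and Pdpn and Pi16 were highest on control replicate 2. Lrat, near the background, was lowest on HuR replicate 2, at 3.43. The brightest marker was Dpt, dermatopontin of the fibroblast matrix, which averaged 12.69 ± 0.88 on control arrays (n = 6) and 12.40 ± 1.48 on HuR arrays (n = 6), highest on HuR replicate 2 and lowest on HuR replicate 4. The smallest p was that of Pi16, a marker of adventitial fibroblasts, which differed by -0.25 (SE 0.139). With the mean of these 15 genes as a covariate, 0 of 42 collagens reached an unadjusted limma p under 0.05, against 9% of all genes, and 0 an adjusted one, against 0.00332%. Col1a1 then differed by -0.13 (SE 0.12) and Col3a1 by -0.15 (SE 0.238).

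Markers of some other cell types stood high on HuR replicate 2 as well, while those of others did not. HuR replicate 2 was highest in the means of macrophage markers, at 9.58 against 6.72 to 8.35 in the controls, and of adipocyte markers, at 9.55 against 6.18 to 8.23. All 12 macrophage markers and all 11 measured adipocyte markers had a higher mean in HuR samples, 4 and 3 of them at an unadjusted limma p under 0.05 (2.87% of all genes). Mesothelial markers were lower in 6 of 6, with none at that level. Their mean was 5.97 to 7.92 in the HuR samples against 6.70 to 8.42 in the controls. The list includes Krt19, at -0.28, a keratin gene that is not particular to mesothelium. Endothelial markers ran from 6.72 to 7.07 in the HuR samples and from 6.71 to 7.06 in the controls, and smooth muscle markers from 4.89 to 5.08 and from 4.87 to 5.04. Islet markers had lower means in HuR samples in 8 of 8, by a median of -0.51, with none at that level. One of these, Ins2, held the same value on 10 of 12 arrays, so its -0.02 gives little direction. Of 8 acinar markers, 5 stood at the same value, the end of the scale, on all 12 arrays and have no direction. The other 3, Bhlha15, Ptf1a and Rbpjl, had lower means, 1 of them, Bhlha15, at an unadjusted limma p under 0.05 (2.63% of all genes). B cell markers had higher means in 5 of 7 and nerve markers lower means in 3 of 4. Islet, mesothelial and B cell means were highest on control replicate 2, acinar and nerve means were lowest on HuR replicate 2, and HuR replicate 4 was lowest in none of these cell type lists. The part of these cell types in the collagen levels was not tested.

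**Figure D4:**
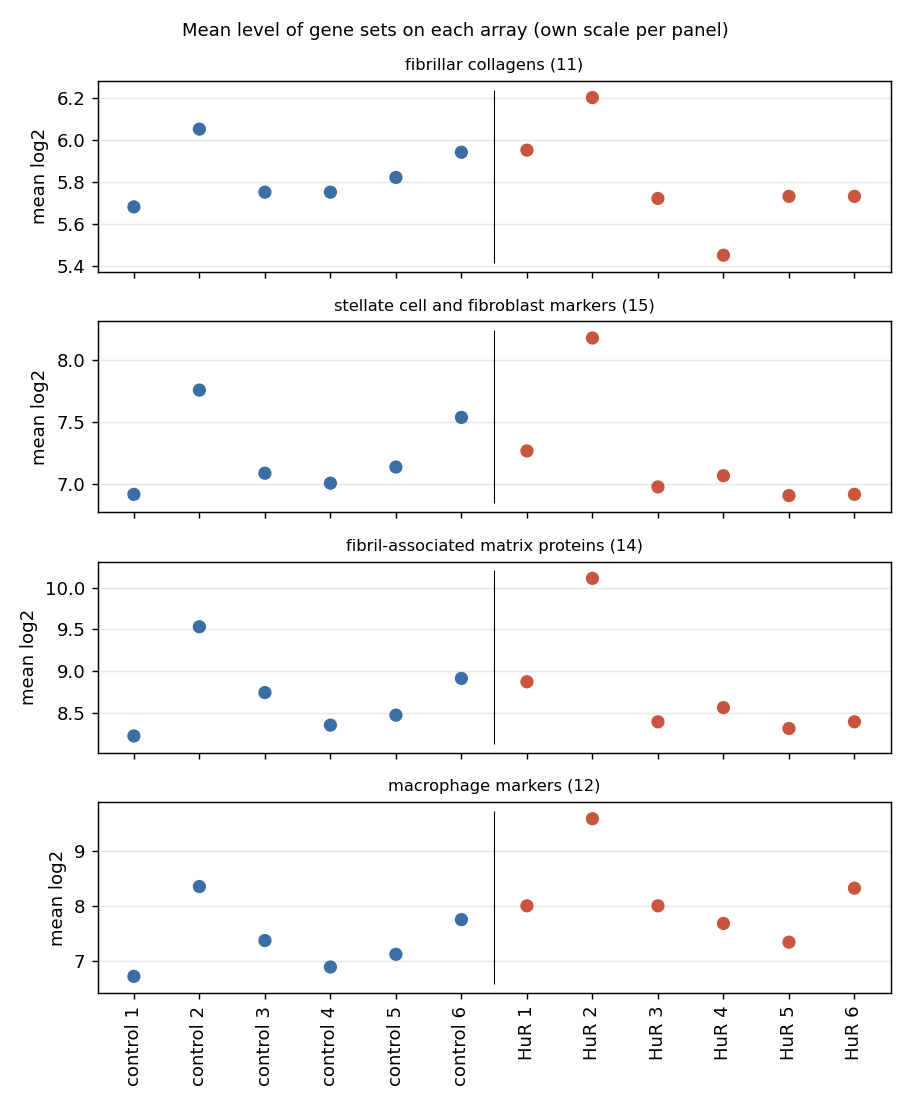
Mean log2 level (vertical axis, own scale per panel) on each of the 12 arrays (control blue, HuR red) of the 11 fibrillar collagens, 15 stellate cell and fibroblast markers, 14 fibril-associated matrix genes and 12 macrophage markers. HuR replicate 2 is highest in all 4 panels, and HuR replicate 4 is lowest only for the collagens, at 5.45.

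The machinery that makes and matures collagen did not separate the genotypes either. Of 16 measured genes for the modification and folding of the chains, 3 were higher and 13 lower, 0 at an unadjusted limma p under 0.05, with differences from -0.10 to 0.15. P3h1, a prolyl 3-hydroxylase, had the smallest p and differed by -0.05 (SE 0.0351). P4hb, the shared subunit of prolyl 4-hydroxylase and a general disulfide isomerase, stood at one identical level on 8 arrays, so differences in it can be hidden.

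Of 11 measured genes for the trimming and crosslinking of procollagen, 3 were higher and 8 lower, 1 in each direction at an unadjusted limma p under 0.05 (2.87% and 2.63% of all genes). Tll1, a protease that trims the ends of procollagen, ran from 4.47 to 4.75 in the controls and from 4.43 to 4.54 in the HuR samples. The difference of -0.12 (SE 0.0476) stood at an exact permutation p of 0.0195 and a limma adjusted p of 0.878. Lox, the lysyl oxidase that crosslinks collagen and elastin and is named with its values already known, ran from 5.19 to 5.70 in the controls and from 5.52 to 6.09 in the HuR samples. The difference of 0.26 (SE 0.108) came with p = 0.0411 in the exact permutation test and a limma adjusted p of 0.896, and its highest array was HuR replicate 4. Loxl1, the brightest member, differed by -0.14 (SE 0.312).

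The partners of collagen in the matrix varied with the arrays as well. Of 14 measured fibril-associated proteoglycans and matrix proteins, 8 were higher and 6 lower, 0 at an unadjusted limma p under 0.05, with a median difference of 0.06. The brightest was Dcn, decorin, which binds along type I fibrils, with a difference of 0.09 (SE 0.326) and the same value on 4 arrays. The smallest p was that of Thbs1, thrombospondin 1, at 0.43 (SE 0.341). Of 12 measured laminins, nidogens and other basement membrane partners, 6 were higher and 6 lower, 0 at that level, with Nid1, the link between laminin and type IV collagen, at -0.17 (SE 0.406) and Lamb3, a laminin chain of epithelium, at 0.08 (SE 0.0586).

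Among 9 measured collagen receptors, 6 were higher and 3 lower, with 1 higher at an unadjusted limma p under 0.05 (2.87% of all genes). That was Lair1, an inhibitory receptor of leukocytes that binds collagen, averaging 4.95 ± 0.07 on control arrays (n = 6) and 5.20 ± 0.08 on HuR arrays (n = 6). In 5 of 6 HuR arrays it lay above all controls, and the difference of 0.24 (SE 0.0502) had an exact permutation p of 0.00433 and a limma adjusted p of 0.778. Itgb1, the shared beta chain of the collagen-binding integrins, was the brightest and differed by 0.23 (SE 0.144).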

How the data were processed

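The authors deposited log2 levels made with RMA, per the labels, a method that corrects for background, normalizes across the arrays and combines the probes of a row. Software versions in the submitters' processing notes are Affymetrix Expression Console 1.4 and, without a stated role, Transcriptome Analysis Console 3.1. The settings and the genome build were not given in the sources used here.

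Of 72688 rows, 6732 control rows were left out. Through the platform annotation 30607 rows had 1 symbol, 2143 several and 33206 none. For 22821 rows the identifier matched the RefSeq list of GRCm38.p6, which served for names and neighbours, and the row with the highest mean stood for a gene. Over all rows, arrays correlated at 0.977 to 0.993.

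Samples were grouped by their titles. limma 3.58.1 in R 4.3.3 (with the data.table package, version 1.17.8) compared the genotypes over 65956 rows, two-sided, with Benjamini-Hochberg adjustment over 30145 genes and a threshold of 0.05. The script was tested on simulated data. Exact permutation tests went through all 924 assignments, with a smallest p of 0.00216. Python 3.11.15, pandas 2.3.3, numpy 2.4.6, scipy 1.17.1 and matplotlib 3.10.9 made the summaries and plots.

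The collagens, and the 15 lists of related genes, were chosen with earlier results of these data known. Values by group are given for the 4 brightest genes of the fibrillar and basement membrane classes, the brightest of each other subclass, and any collagen at an unadjusted p under 0.05 or without overlap, of which there were none. From each pathway list, and from the stellate cell and fibroblast list, the brightest gene and that with the smallest p are named. Values of Col6a2, Col6a3, Col6a5, Col10a1, Col12a1, Lox, Bhlha15, Ptf1a and Rbpjl were added with the values in view. The alternatives tried were blocking by replicate number, leaving out rows under the median level, 2 normalizations, averaging the rows of a gene, 2 other variance models, weighting arrays, omitting single arrays or both replicates numbered 2, a threshold of 0.1 and, added after seeing the data, the stellate cell and fibroblast mean as a covariate and the omission of arrays for the collagens outside the naming rule.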

Additional observations from a re-analysis of the deposited data

Results flagged for a closer look

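Of the 84 groups of 6 arrays (42 collagens in 2 genotypes), 9 held an array whose gap to its nearest neighbour was above Dixon's 95% critical share of the group's range, where chance gives about 4.2. HuR replicate 2 was such an array in 4 genes. It lay highest for Col14a1 at 9.83, with the next HuR array at 8.30, and for Col6a1 at 8.66, with the next at 7.80. It lay lowest, by a small margin near the background, for Col19a1 at 4.10 and for Col26a1 at 4.18.

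Control replicate 2 lay highest for Col6a5 at 6.01, with the next control at 5.32, and for Col12a1 at 4.88, with the next at 4.52. In the same gene HuR replicate 1 lay highest of its group at 4.59. Control replicate 4 lay highest for Col8a2 at 4.82, and control replicate 1 for Col28a1 at 4.57.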

How the results depend on the processing

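Each collagen had 1 row, so averaging the rows of a gene could not change its difference. The smallest limma adjusted p over all genes was 0.437, so a threshold of 0.1 could call none. Under all alternatives 0 collagens were called. The number called over all genes was 0 except with the stellate cell and fibroblast covariate, where it was 1. That covariate gave 2712 genes at an unadjusted limma p under 0.05, against 1657 without it. With single arrays left out the latter count ran from 1326 to 2206. Collagens at an unadjusted p under 0.05 numbered 0 to 2, with 2 without HuR replicate 2 and 1, Col4a2 at 0.11, without HuR replicate 4. Whether the replicate numbers pair the samples was not settled. Deviations of same-numbered arrays correlated at -0.08 to 0.64, above 0.1 in 3 of 6 pairs. Among the arrays, 4 of 12 correlated best with their own number, including both numbered 2. With a replicate block 2270 genes (7.53%) and 0 collagens were at an unadjusted p under 0.05, and 0 were called. The block lowered the SE of Col1a2 from 0.348 to 0.169 and of Col1a1 from 0.295 to 0.184, and left that of Col4a2 at 0.0521. Medians with single arrays left out ran from -0.008 to 0.019 for the family, -0.027 to 0.023 for fibrillar, 0.015 to 0.047 for basement membrane and -0.011 to 0.012 for other collagens. Of 285 differences of 13 collagens, 30 changed sign, all uncalled, at a smallest adjusted p of 0.671, and the cause was not tested. Col1a2 turned to 0.01 with arrays at a common median and 0.03 with the covariate, Col28a1 to 0.01 at a common median and 0.02 after quantile normalization, with array weights and without both replicates numbered 2, Col23a1 to 0.00 with array weights and Col18a1 to 0.00 after quantile normalization. Without both replicates numbered 2, Col5a2 turned to -0.01 and Col15a1 to -0.05. With single arrays left out, differences ran from -0.62 to 0.09 for Col3a1, -0.29 to 0.17 for Col1a2, -0.04 to 0.08 for Col5a2, -0.09 to 0.25 for Col15a1, 0.00 to 0.04 for Col18a1, 0.03 to 0.13 for Col4a1, 0.06 to 0.11 for Col4a2, -0.43 to 0.06 for Col14a1, -0.02 to 0.03 for Col28a1 and -0.03 to 0.00 for Col23a1. Signal near background limits the 10 collagens below the median row, and it can limit those little above it too.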

Other observations

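HuR replicate 4 held the lowest level of Col1a1, Col1a2, Col3a1, Col15a1, Col6a1, Col6a2 and Col6a3, while the mean of the stellate cell and fibroblast markers, 7.07 on this array, was the seventh highest of 12. Single markers differed: Dpt was at its lowest there, at 11.44, and Gsn, gelsolin, stood at 12.18 against a control mean of 11.46 ± 0.52 (SD, n = 6). The genes named here were picked with their values known. Of 11 fibril-associated matrix genes that spanned more than 1 log2 unit, 5 had their lowest value on this array, as did 10.2% of all genes with such a span. These were Fn1, fibronectin, at 8.46 against a control mean of 10.06 ± 1.31 (SD, n = 6), Sparc, a collagen-binding matricellular protein, at 10.14 against 11.24 ± 0.96, Lum, lumican, at 7.32 against 8.04 ± 0.39, Postn, periostin, at 5.62 against 6.09 ± 0.22, and Fmod, fibromodulin, at 4.84 against 5.37 ± 0.52.

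Other genes of the same lists stood high there. HuR replicate 4 was the highest of all 12 arrays for Thbs1, at 8.47, and for Lox, at 6.09. The mean of the matrix list was 8.56, the sixth highest. This is 1 array, and what sets it apart was not tested.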
